A study of Mus musculus with 6 samples.

Results

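The interleukin 1 (IL-1) family and the NLRP3 inflammasome were followed here through 10 genes in mouse aorta: Il1a, Il1b, Il18, Il1rn, Il1r2, Il18bp, Il1r1, Il1rap, Nlrp3 and Casp1. They were defined by the gene symbol that the deposited intensity table gives a probe. For the fit, probes were named by RefSeq accession where it matched, and otherwise by that symbol or its synonym. The 10 genes had 11 probes of the 39362 analysed, 1 each except Il1rap with 2, among 25721 named genes in all. No member was lost to a missing value or to a filter.

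Each of 6 aortas was hybridised to its own 2-colour Agilent array, an oligonucleotide microarray on which 2 RNAs compete under different dyes. The 3 ApoE KO samples were aortas of mice without apolipoprotein E, labelled as fed a high-fat diet, 32 weeks old and bearing atherosclerotic lesions. The 3 wild type (WT) samples were aortas of C57BL6 mice, labelled as fed a high-fat diet, 24 weeks old and free of lesions. Each aorta's own RNA carried Cy5, and a common reference of RNA from C57BL6 mice on a high-fat diet, also labelled 24 weeks, carried Cy3. The Cy5 labels of both groups also name a C57BL6 db/+ background and a source of 9 weeks of age, which goes against the ages given above. Feeding began at 8 weeks of age and lasted 16 weeks, per the labels' protocols, which gives 24 weeks and not 32. Headings of 3 further arrays in the intensity table name a vehicle and 24 weeks of diet, but no group. Genotype can therefore not be told apart from labelled age, nor from diet length or vehicle if those headings are of the ApoE KO arrays. The labels do not say whether an aorta came from 1 animal. A value below is the log2 ratio of own RNA over reference, and a difference is the ApoE KO mean minus the WT mean of these ratios, given with its standard error from limma (n = 3 arrays per group).

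IL-1 alpha and IL-1 beta are inflammatory cytokines that act through the same receptor, and the receptor antagonist competes with them without starting a signal. IL-1 beta and interleukin 18 are made as inactive precursors. The protease caspase 1 cuts them once it is activated by an inflammasome, a cytosolic complex of which NLRP3 is the best known sensor in macrophages. Cholesterol crystals are a known trigger of NLRP3, which is why this pathway is studied in atherosclerosis. Transcript levels say nothing of that cleavage.

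Apoe, the targeted gene, had log2 ratios of -1.31, -1.21 and -1.31 in the ApoE KO arrays, against 0.0, -0.32 and 0.12 in the WT arrays, a difference of -1.21 ± 0.13 (adjusted p 0.00649 in limma). Whether its probe lies in the deleted part is not known here. Between 35.1% and 57.7% of the log2 ratios on an array were exactly 0. The intensities are rounded to 0.01, and the dim-probe ratios checked on WT arrays had been formed from such rounded values. Whether this holds for the ApoE KO arrays was not tested. The SD of the ratios over features was 0.24 to 0.264 on ApoE KO arrays and 0.075 to 0.135 on WT arrays. WT replicates 2 and 3 carry the same number in 1 label, but their values were not the same (SD of the difference 0.173). The aorta markers Acta2 and Tagln, contractile genes of smooth muscle, had reference intensities of 192 and 135, against a median of 0.143 over all features.

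Of the 10 genes, 6 rose in the ApoE KO aortas and 0 fell at an adjusted p under 0.05 in limma. Of all 35027 features, 6.73% were called higher and 14.7% called in either direction. The 10 genes and the pathway and marker lists below were chosen with earlier results of these data known, so such counts are descriptive. The 6 that rose were Il1rn, Il1b, Il18bp, Nlrp3, Casp1 and Il18, by between 1.57-fold for Il18 and 7.17-fold for Il1rn. The 4 that did not pass were Il1a, Il1r1, Il1r2 and Il1rap, 3 of which encode receptor chains. Groups did not overlap for 7 of the 10 genes, all higher in ApoE KO, against 11.0% of all features higher and 29.3% in either direction. In whole tissue, more cells of a type and more RNA per cell cannot be told apart. The median difference was 0.79 over the 10 genes and -0.02 over all features. ApoE KO replicate 1 had the highest value of its group for all 6 genes that rose.

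**Figure D1:**
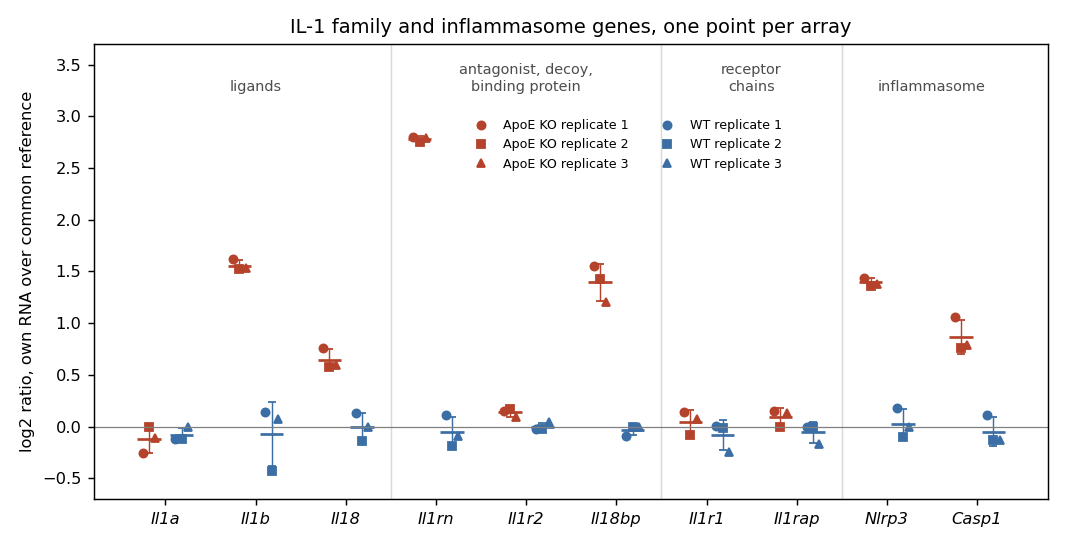
Log2 ratio of own RNA over the common reference (vertical axis) for the 10 genes, grouped by role. Red points are ApoE KO arrays and blue points WT arrays, each replicate with its own symbol, and bars are the mean ± SD of 3 arrays. Il1rn lies at 2.75 to 2.8 in ApoE KO and at -0.19 to 0.11 in WT, whereas both groups lie near 0 for Il1a, Il1r1, Il1r2 and Il1rap.

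Among the ligands, Il1b and Il18 were higher in the ApoE KO aortas and Il1a was not. Il1b encodes IL-1 beta, the form that myeloid cells secrete. Its log2 ratios were 1.62, 1.52 and 1.53 in the ApoE KO arrays, against 0.14, -0.43 and 0.07 in the WT arrays. The WT arrays were spread more widely than the ApoE KO arrays (SD 0.311 in WT and 0.054 in ApoE KO), with WT replicate 2 the lowest, and the gap between the groups was 1.38. The difference was 1.63 ± 0.17, or 3.1-fold, with a 95% interval of 2.26 to 4.24-fold and an adjusted p of 0.00629 in limma. Without WT replicate 2 the difference was 1.453.

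Il18 encodes interleukin 18, a relative of IL-1 beta that needs the same cleavage and drives interferon gamma production in lymphocytes. Its log2 ratios were 0.76, 0.58 and 0.6 in the ApoE KO arrays, against 0.13, -0.14 and 0.0 in the WT arrays. The groups were apart by 0.46, the smallest gap among the 6 genes that rose. The difference was 0.65 ± 0.088, or 1.57-fold (95% interval 1.34 to 1.85-fold, adjusted p 0.013 in limma). Without ApoE KO replicate 3 the adjusted p was 0.0524, with a difference of 0.677.

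Il1a encodes IL-1 alpha, which is active without cleavage and is released from damaged cells. Its log2 ratios were -0.26, 0.0 and -0.11 in the ApoE KO arrays, against -0.12, -0.12 and 0.0 in the WT arrays. All 3 WT values lay within the range of the ApoE KO values. The difference was -0.05 ± 0.08, with a 95% interval of 0.836 to 1.12-fold and an adjusted p of 0.766 in limma. The probe was dim, with a reference intensity of 0.127, so that 1 rounding step was worth 0.11 on the log2 scale. A difference of that size could not be resolved.

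Of the inhibitors, Il1rn and Il18bp rose and Il1r2 did not pass the test. Il1rn, the IL-1 receptor antagonist, had log2 ratios of 2.8, 2.75 and 2.79 in the ApoE KO arrays, against 0.11, -0.19 and -0.09 in the WT arrays. The 3 ApoE KO arrays were close together (SD 0.024) and lay 2.65 above the highest WT array. The difference was 2.84 ± 0.084, or 7.17-fold (95% interval 6.14 to 8.37-fold, adjusted p 0.000482 in limma). By size of the difference it was number 9 of 25721 named genes, with Il1b at 117, Il18bp at 173 and Nlrp3 at 195. The antagonist is made as secreted and intracellular isoforms, and the sources do not say which of them the probe detects.

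Il18bp encodes a secreted protein that binds interleukin 18 and keeps it from its receptor. It had log2 ratios of 1.55, 1.43 and 1.2 in the ApoE KO arrays, against -0.09, 0.0 and 0.0 in the WT arrays. Its ApoE KO values were the most spread among the members (SD 0.181), yet the lowest stood 1.2 above the highest WT value. The difference was 1.42 ± 0.1, or 2.68-fold (95% interval 2.23 to 3.23-fold, adjusted p 0.00223 in limma).

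Il1r2 encodes the decoy receptor, which binds IL-1 but lacks the domain that passes a signal on. Its log2 ratios were 0.15, 0.17 and 0.09 in the ApoE KO arrays, against -0.02, -0.02 and 0.04 in the WT arrays. The groups did not overlap, but the gap was 0.04. The difference of 0.14 ± 0.032, or 1.1-fold, had a 95% interval of 1.04 to 1.17-fold and missed the threshold with an adjusted p of 0.0603 in limma. It passed when the fit held only the 9034 brighter features, those of level 0.5 or more (adjusted p 0.0369), where the background was 19.0% called higher and 43.4% in either direction.

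The receptor chains that transmit the signal differed little between the groups. Il1r1, the signalling receptor for both IL-1 ligands, had log2 ratios of 0.14, -0.08 and 0.07 in the ApoE KO arrays, against 0.01, -0.01 and -0.25 in the WT arrays. Its probe was the brightest of the set in the reference, at 1.85, so that 1 rounding step was worth 0.008. The groups overlapped, and the difference was 0.12 ± 0.098 (95% interval 0.911 to 1.3-fold, adjusted p 0.495 in limma).

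Il1rap is the accessory chain that joins the receptor once a ligand is bound. The brighter of its 2 probes, made for AI255955, had log2 ratios of 0.15, 0.0 and 0.13 in the ApoE KO arrays, against 0.0, 0.0 and -0.17 in the WT arrays. The difference was 0.15 ± 0.069, with a 95% interval of 0.977 to 1.26-fold and an adjusted p of 0.254 in limma. The other probe, made for MMT00054764, pointed the other way, with 0.0 on all 3 ApoE KO arrays, against 0.32, 0.0 and 0.26 on the WT arrays. In a fit over all probes that difference was -0.19 ± 0.093 and the adjusted p was 0.26 for both probes. With reference intensities of 0.0967 and 0.0467, both differences came to about 1 rounding step or less, and no direction can be read for this gene.

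The inflammasome genes Nlrp3 and Casp1 were both higher in the ApoE KO aortas. Nlrp3, the sensor, had log2 ratios of 1.44, 1.36 and 1.38 in the ApoE KO arrays, against 0.18, -0.1 and 0.0 in the WT arrays. The ApoE KO values were close together and 1.18 above the highest WT value. The difference was 1.37 ± 0.08, or 2.58-fold (95% interval 2.22 to 2.99-fold, adjusted p 0.00141 in limma). Casp1, the protease, had log2 ratios of 1.06, 0.76 and 0.79 in the ApoE KO arrays, against 0.11, -0.13 and -0.13 in the WT arrays. The groups were 0.65 apart, and the difference was 0.92 ± 0.12, or 1.89-fold (95% interval 1.52 to 2.34-fold, adjusted p 0.0109 in limma). Both probes were near the median brightness of the array, with reference intensities of 0.147 for Nlrp3 and 0.123 for Casp1. They were thus about as dim as the Il1a probe (0.127), and that of Casp1 was slightly dimmer. The differences of Nlrp3 and Casp1 nevertheless came to 23.5 and 10.7 rounding steps, against 0.355 for Il1a. Without WT replicate 2 the adjusted p of Casp1 was 0.0502, with a difference of 0.879.

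**Figure D2:**
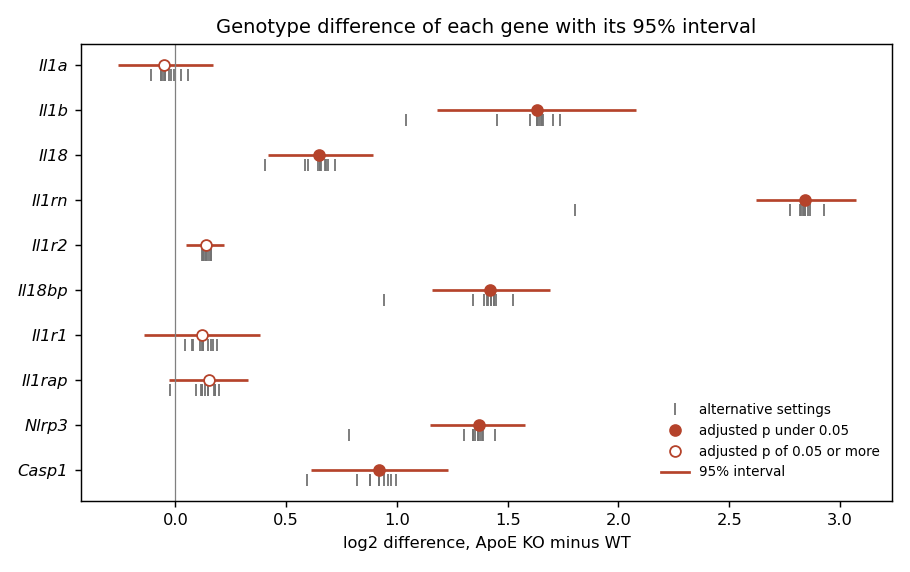
Difference between ApoE KO and WT (horizontal axis, log2) for each of the 10 genes. Circles with lines are the estimate and its 95% interval, filled where the adjusted p was under 0.05, and the grey ticks below are the estimates under alternative processing. The leftmost tick of Il1rn, Il1b, Il18bp, Nlrp3, Casp1 and Il18 is quantile normalization, which gave 1.81 for Il1rn.

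Quantile normalization, which gives all arrays the same spread of ratios, ended 4 of the 6 calls. The adjusted p became 0.13 for Il1b, 0.127 for Nlrp3, 0.132 for Casp1 and 0.314 for Il18, with differences of 1.04, 0.78, 0.6 and 0.4. The calls of Il1rn (1.81, adjusted p 0.0104) and Il18bp (0.94, adjusted p 0.00925) were kept at smaller sizes.

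Within an array, the log2 ratio of the antagonist stood further above that of the ligands in ApoE KO than in WT. The log2 ratio of Il1rn minus that of Il1b was 1.18, 1.23 and 1.26 in the ApoE KO arrays, against -0.03, 0.23 and -0.17 in the WT arrays. The groups lay apart, with a difference of 1.21. Il1a minus Il1b differed by -1.68 and Il1rn minus Il1a by 2.89, with no overlap. Il18bp minus Il18 was 0.79, 0.85 and 0.59 in the ApoE KO arrays, against -0.21, 0.14 and 0.0 in the WT arrays, a difference of 0.77. Nlrp3 minus Casp1 differed by 0.45, with values between 0.38 and 0.6 in ApoE KO and between 0.03 and 0.13 in WT. For the receptor chains, Il1r2 minus Il1r1 (0.01) and Il1rap minus Il1r1 (0.02) had overlapping groups.

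Each of the 5 separated pairs had an exact two-sided permutation p of 0.1, the smallest that 3 against 3 arrays allow, and 0.14 after adjustment over the 7 pairs. The other pairs had exact permutation p values of 0.8 and 0.4. No pair could have reached 0.05, and ratios of different probes compare fold changes, not amounts of RNA.

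**Figure D3:**
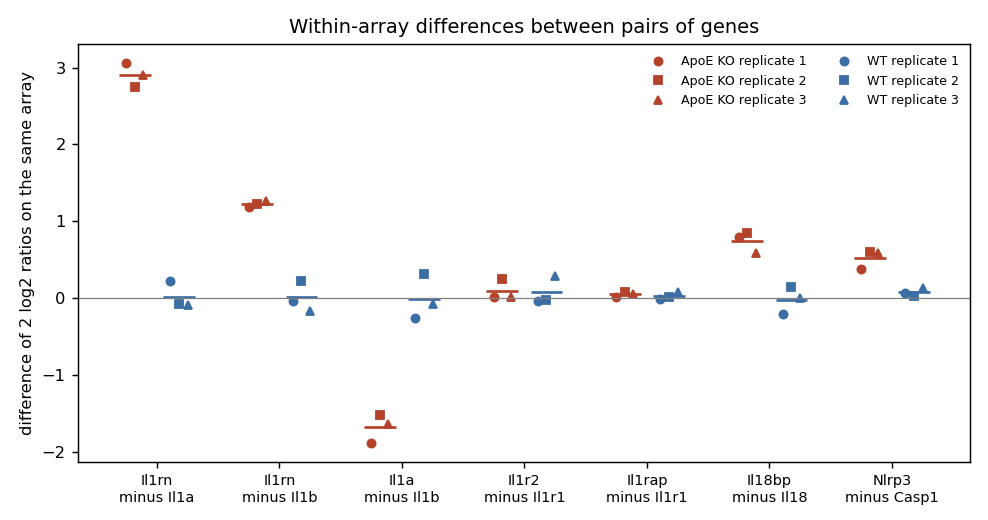
Difference of the log2 ratios of 2 genes on the same array (vertical axis) for 7 pairs. Red points are ApoE KO and blue points WT arrays, with horizontal bars for the mean of 3 arrays. The groups lie apart for Il1rn minus Il1a, Il1rn minus Il1b, Il1a minus Il1b, Il18bp minus Il18 and Nlrp3 minus Casp1.

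Il1a and Il1b are next to each other on chromosome 2, and Il1b was called higher whereas Il1a, on a dim probe (reference intensity 0.127), was not. Their upstream sequences are shown with those of Il1rn and Nlrp3, 2 genes that rose with Il1b. The sequences are the 250 bases before the outermost RefSeq transcript start of each gene on GRCm38.p6, 5′ to 3′ on the gene's strand. Capitals mark matches to C/EBP (TTNNGNAA), PU.1 (GAGGAA), AP-1 (TGANTCA), GAS (TTCNNNGAA) and the NF-kB consensus on either strand and to the TATA box (TATAAA) on the sense strand.
Il1b, chr2:129371140-129371389, minus strand: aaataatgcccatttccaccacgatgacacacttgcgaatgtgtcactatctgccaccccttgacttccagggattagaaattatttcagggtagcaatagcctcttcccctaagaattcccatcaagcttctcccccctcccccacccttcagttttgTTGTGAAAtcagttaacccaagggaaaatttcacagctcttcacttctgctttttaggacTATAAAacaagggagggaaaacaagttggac
Il1a, chr2:129309973-129310222, minus strand: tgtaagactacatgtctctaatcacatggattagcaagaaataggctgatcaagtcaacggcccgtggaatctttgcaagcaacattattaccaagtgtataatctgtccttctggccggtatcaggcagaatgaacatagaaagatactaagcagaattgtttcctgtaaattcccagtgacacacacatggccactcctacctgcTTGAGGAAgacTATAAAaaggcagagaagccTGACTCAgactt
Il1rn, chr2:24336610-24336859, plus strand: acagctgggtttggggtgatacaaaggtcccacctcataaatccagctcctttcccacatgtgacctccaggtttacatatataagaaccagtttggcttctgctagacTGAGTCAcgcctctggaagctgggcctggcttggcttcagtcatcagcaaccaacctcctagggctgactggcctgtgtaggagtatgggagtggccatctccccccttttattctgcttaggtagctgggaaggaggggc
Nlrp3, chr11:59541319-59541568, plus strand: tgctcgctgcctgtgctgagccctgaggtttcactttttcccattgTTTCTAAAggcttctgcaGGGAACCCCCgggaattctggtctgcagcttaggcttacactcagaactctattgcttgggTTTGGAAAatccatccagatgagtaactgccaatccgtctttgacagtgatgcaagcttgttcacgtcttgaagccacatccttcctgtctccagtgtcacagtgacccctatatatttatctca

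Both Il1a and Il1b had a TATA box, which begins 32 and 31 bases before the start and is found in 7.6% of all 32851 such windows. Il1b had 1 further match, a C/EBP match 91 bases before the start. Il1a had a PU.1 match that overlaps its C/EBP match, and an AP-1 match 12 bases before the start. The Il1rn window held 1 AP-1 match, as did 6.7% of all windows, and the Nlrp3 window 1 NF-kB match and 2 C/EBP matches, found in 7.3% and 36.8% of all windows. Over all 14 windows of the 10 genes, 9 held a C/EBP match, 3 a PU.1 match (23.3% of all windows) and 1 a GAS match (7.0%). NF-kB, AP-1 and TATA box matches were each in 2 of the 14. The 9 include windows of Il1a and Il1r1, genes that did not pass, and overlapping windows of Il1rn that share a match. Il1b and Nlrp3 both held a C/EBP match, and no motif was found in all 3 printed windows of the genes that rose. This depends on the start chosen, because the Il1rn windows at its other starts, not printed, did hold C/EBP matches. These are matches of letters and not binding sites.

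In chromosome order, the genes around Il1rn, Il1b and Casp1 did not all change in the same way. Il1rn stands at the end of a run of IL-1 family genes, and its 5 measured neighbours on that side, Il1f8, Il1f9 and Il1f6 (interleukin 36 ligands), Il1f5 (the interleukin 36 receptor antagonist) and Il1f10, had differences between -0.28 and 0.11, none called. Those of Il1f8, Il1f9, Il1f6 and Il1f5 were under 1 rounding step (0.343, 0.333, 0.648 and 0.267), so that small changes could not be seen. The gene on the other side of Il1rn, Psd4, an exchange factor for a small GTPase, was called at 1.63, and Arrdc1, further along, at 0.25. Around Il1b, the cell cycle gene Ckap2l beyond Il1a was called at 0.87 and Slc20a1, next to it, at 0.46. Sirpa, an inhibitory receptor of myeloid cells, was called at 1.72. On chromosome 1, the receptor genes Il1r2, Il1r1, Il1rl2, Il1rl1, Il18r1 and Il18rap lie side by side and had differences from 0.0 to 0.23. Creg2, further out beyond Il1r2, was called at 0.64. Casp1 (0.92) is next to Casp4 (0.97), the mouse caspase 11 that senses bacterial lipopolysaccharide, and both were called. Casp12, the next gene, fell by 0.17 (adjusted p 0.00808 in limma), and Pdgfd beyond it was called at -0.37 (0.0427).

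**Figure D4:**
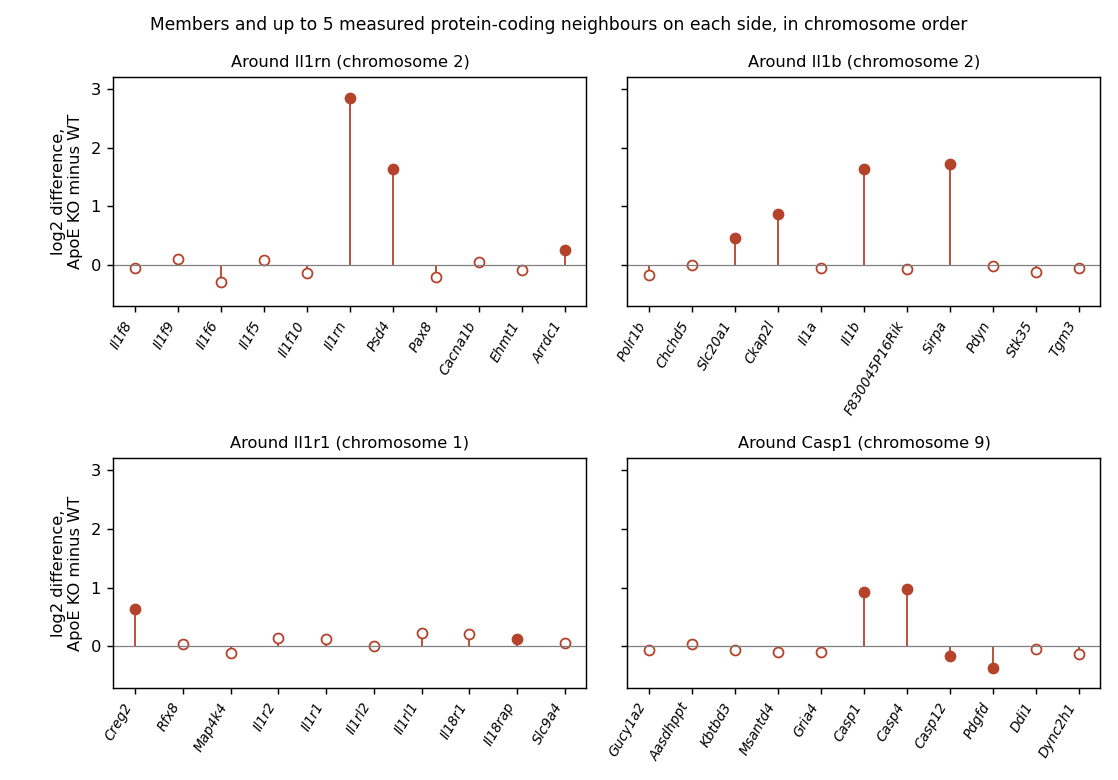
Difference between ApoE KO and WT (vertical axis, log2) of Il1rn, Il1b, Il1r1 and Casp1 and of up to 5 protein-coding neighbours on each side that were measured, in chromosome order with no distances. Filled circles had an adjusted p under 0.05. Il1rn at 2.84 stands beside IL-1 family neighbours that lie between -0.28 and 0.11. Of these, Il1f6, Il1f5 and Il1f9 had dim probes, with reference intensities of 0.0333, 0.04 and 0.05.

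Of 13 other ligands and receptors of the IL-1 family, 1 was called higher and 1 lower, a share near the 14.7% called over all features, with a median difference of 0.04. Most of these probes were dim, with 1 of the 13 at a level of 0.5 or more and 4 at a reference intensity under 0.1, so that small changes could not be seen. These were Il18rap (0.13), the accessory chain for interleukin 18, and Il1rapl1 (-0.08), a synaptic relative of the accessory chain. Both differences were under 1 rounding step (0.94 and 0.951), so their size is not resolved. Il33, an alarmin of stromal cells and the brightest of this list with a reference intensity of 4.81, was at 0.17 (adjusted p 0.323 in limma), and its receptor Il1rl1 at 0.23 (0.254).

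Below the receptor, 3 of 18 measured signalling genes rose and 0 fell, with a median of 0.08, against 6.73% of all features called higher and 8.0% lower. The share called in either direction was near the 14.7% over all features. Groups did not overlap for 7 genes that were higher and 1 that was lower, against 11.0% and 18.4% of all features. Myd88, the adaptor shared by IL-1 and Toll-like receptors, had a difference of 0.33 ± 0.019 with an adjusted p of 0.00128 in limma. Nfkbiz, an inducible partner of NF-kB, was at 0.84 ± 0.12, and Irak4, a receptor-proximal kinase, at 0.25 ± 0.039. After quantile normalization the adjusted p was 0.156 for Nfkbiz and 0.453 for Irak4. The calls of both were lost without ApoE KO replicate 1 (0.0505 for Nfkbiz, 0.0766 for Irak4), ApoE KO replicate 3 (0.0734 and 0.0781) or WT replicate 2 (0.0703 and 0.075), that of Nfkbiz without WT replicate 3 (0.0511) and that of Irak4 without ApoE KO replicate 2 (0.0625).

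Of 24 other genes of inflammasomes and pyroptosis, 9 rose and 1, Casp12, fell, with a median of 0.19, against 6.73% of all features called higher and 8.0% lower. After quantile normalization 5 were called higher and 0 lower. Pycard, the adaptor that links NLRP3 to caspase 1, was at 0.97 ± 0.034 (adjusted p 0.00069 in limma). Panx1, a membrane channel, was at 1.23 ± 0.13, and P2rx7, an ATP-gated ion channel upstream of NLRP3, at 0.78 ± 0.06. Casp4 (0.97), Naip2 (0.66), which recognises a bacterial secretion protein, and Cebpb (0.35), a transcription factor of myeloid cells, were the other genes of lowest p. Gsdmd, the pore former cut by caspase 1, was at 0.52 (adjusted p 0.0108), a call that was lost without ApoE KO replicate 1 (0.0506). Among other sensors, Nlrc4 rose by 0.79, a call on a dim probe (reference intensity 0.06) that was lost without ApoE KO replicate 1 (0.0527), ApoE KO replicate 3 (0.0529) or WT replicate 2 (0.053). Aim2 at 0.0 and Nlrp1a at -0.07 did not pass. Among the calls lost after quantile normalization were those of Cebpb (0.192), Gsdmd (0.201), Nlrc4 (0.0582) and Casp12 (0.197).

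Genes that IL-1 can induce in cells of the vessel wall were higher in most cases, although other signals induce them as well. Of 24 such genes 19 rose and 0 fell, with a median of 0.86, against 6.73% of all features called higher and 8.0% lower. This list too was chosen with earlier results of these data known. In order of p, the first were the monocyte chemokine Ccl2 (1.84), the endothelial selectin Sele (2.34), the plasminogen activator Plau (1.66), Il6 (2.44), the adhesion molecule Vcam1 (2.03) and the neutrophil chemokine Cxcl1 (0.86). The 5 that did not pass were Ptgs2 (0.85, adjusted p 0.0683), Csf3 (-0.04), Lif (-0.13), Ptges (0.04) and Csf2 (0.09). After quantile normalization 12 of the 24 were called higher, beside 871 of all 35027 features. With the replicate number as a block 12 were, beside 1281 features. With 1 array left out in turn, 14 to 17 of the 24 were called higher.

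**Figure D5:**
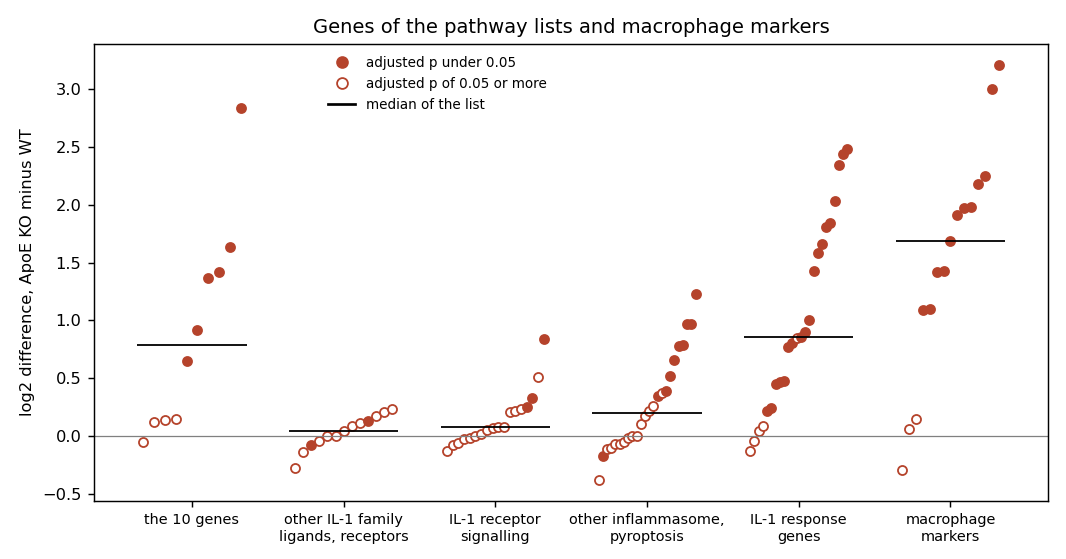
Difference between ApoE KO and WT (vertical axis, log2) of every measured gene in 5 pathway lists and in the list of macrophage markers, sorted within each list. Filled circles had an adjusted p under 0.05 and lines are medians. The medians are 0.79 for the 10 genes, 0.04, 0.08, 0.19 and 0.86 for the other pathway lists in the order shown, and 1.69 for macrophage markers.

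Most macrophage markers moved with the 6 genes that rose. Of 15 markers 12 rose and 0 fell, with a median difference of 1.69, against 6.73% of all features called higher and 8.0% lower. The median of their log2 ratios was 1.61, 1.77 and 1.69 in the ApoE KO arrays, against 0.03, -0.18 and 0.06 in the WT arrays. Their summed intensity, from reference intensity and ratio, was 239 to 283 in ApoE KO and 56.1 to 71.1 in WT. Of the 15 markers, 2 had a larger difference than Il1rn (Ctss at 3.21 and Mpeg1 at 3.0), 8 a larger one than Il1b, 9 than Il18bp, 10 than Nlrp3 and 12 than Casp1 and Il18. The 3 that did not pass were Cd68 (0.15), Itgam (-0.29) and Mertk (0.06), of which Mertk was near the floor with a reference intensity of 0.0433. Itgam was bright (6.87), and its ApoE KO values lay below its WT values without overlap. In the fit of features of level 0.5 or more, Itgam was called lower (adjusted p 0.0248 in limma). That fit held 11 of the markers and called 10 higher and 1 lower, against 19.0% and 24.5% of its features. The part of macrophage number in the differences was not tested.

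Neutrophils also express Il1b and Il1r2. Over all features, 6.73% were called higher and 8.0% lower, the background for each marker count that follows. Of 9 neutrophil markers 3 rose, S100a8 (1.14), S100a9 (1.17) and Cxcr2 (0.95), and 0 fell. None of the 3 passed after quantile normalization (adjusted p 0.242, 0.36 and 0.229) or with the replicate number as a block. The count was 1 without WT replicate 1, 2 or 3, and S100a9 and S100a8 also missed the threshold without ApoE KO replicate 3 (0.0909 and 0.0628). The summed intensity of the 9 markers was 5.93 to 8.75 in ApoE KO and 3.44 to 3.96 in WT. The granule genes Mpo, Elane, Ngp and Camp, which did not pass, had reference intensities of 0.0967, 0.09, 0.103 and 0.05. Smooth muscle markers fell in 8 of 10, with a median of -0.62 and summed intensities of 392 to 447 in ApoE KO and 650.0 to 697 in WT. The count of smooth muscle markers that fell was 5 after quantile normalization and 3 with the replicate block. T cell and NK markers were called in 0 of 9 by limma, with a median of 0.05, and 2 at an unadjusted p under 0.05, all higher. Without ApoE KO replicate 3, 3 of them were called higher, and 4 of the 9 had a reference intensity under 0.1. The endothelial markers Vwf (0.47), Emcn (0.73) and Esam (0.18) were called higher, 3 of 10, but 0 after quantile normalization, with the replicate block, or when ApoE KO replicate 1 or 2 was left out, and 1 when WT replicate 2 or 3 was. Of 8 fibroblast markers, Lum (1.76) and Col1a1 (0.51) rose, Lum alone after quantile normalization. Serpinf1 (-0.46) was called lower, a call not kept by quantile normalization (adjusted p 0.22) or without ApoE KO replicate 1 or 3 or WT replicate 1 or 3 (0.0874 to 0.121). The epithelial markers Cdh1 (0.44) and Krt18 (-0.19) and the B cell markers Pax5 (-0.14) and Ebf1 (-0.21) were called, 2 of 6 and 2 of 7, and none of these 4 calls was kept by quantile normalization or the block, nor with 3 (Ebf1) or 5 (the others) of the 6 arrays left out singly. Of 6 adipocyte markers, Lep (-0.14) was called lower, by under 1 rounding step (0.875). Mast cell markers (8) and cardiac muscle markers (6) had 0 calls in limma (at an unadjusted p under 0.05, 1 mast cell marker higher and 1 lower, and 0 cardiac markers), the cardiac medians being -0.58, 0.45 and 0.73 in the ApoE KO arrays, against -0.04, -0.79 and 0.04 in the WT arrays. The part of these cells in the differences was not tested either.

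For each gene with a called difference of at least 1, up to 5 bright named genes with the closest log2 ratios over the 6 arrays were listed from about 8083 candidates. Closest to Il1rn were Abcg1, Cd300c2, Bcl2a1a, Bcl2a1b and Lilrb4a, at a root mean square distance of 0.087 to 0.16. The 2 Bcl2a1 genes are near-identical copies, so that their probes may not tell them apart. Closest to Il1b were Repin1, Coro1a, Pilra and Zmynd15 (0.049 to 0.107). Closest to Il18bp were B430306N03Rik, Arhgap19, Lgmn, Soat1 and Lpcat2 (0.088 to 0.103), and closest to Nlrp3 Ubash3b, Slco2a1, Hpse, Cxcl14 and Lpcat2 (0.04 to 0.081). Lpcat2 was the gene that 2 of the 4 lists shared. These distances rest mostly on the difference between the groups and on 3 arrays of each.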

How the data were processed

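The authors deposited a log10 ratio per array for 39556 probes (own RNA over reference), and intensity values of both channels in a second table, in arbitrary units rounded to 0.01 (99.99% of those used). The submitters' processing notes name Agilent Feature Extraction 8.5.1.1, and per the labels' protocols 100 ng of RNA was amplified in repeated rounds, which can compress differences. Background correction, dye normalization and scaling are not stated by the labels or headers, and no detection flags were used. Of its 18 value columns, 15 were not used, and the 3 used hold Intensity 1 of the arrays headed C57BL6, the reference channel. For dim probes (under 0.2) with equal Intensity 1 on those arrays, Intensity 1 times 10 to the power of the WT value was a whole number of 0.01 steps, within 0.05 step, for 100.0% of 1212 ratios away from 0, against 1.65% with the sign turned and 0.17% read as log2. This fixed scale and direction for WT, and the ApoE KO arrays carry the same dyes in the labels. The median log2 ratio was 0 on each array, and whether the authors centred them remains unknown.

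Ratios were converted to log2, and 194 probes that lacked a value were dropped. Probes were named through mouse RefSeq genes (GRCm38.p6), with 6984 matched on accession, 16552 on symbol and 2557 on synonym; 3963 kept the name in the file and 9306 stayed unnamed. The probe of highest level was kept for each symbol, which gave 35027 features. A probe's level is its mean Intensity 1, multiplied by the average of 1 and its mean ratio on the 6 arrays. The test was limma 3.58.1 (lmFit, eBayes, no trend, no block) in R 4.3.3, with Benjamini-Hochberg adjustment over all features, two-sided, at 0.05. The fit was also run on simulated arrays, whose outcome is not reported here. Their noise came from bright features and only bright features were changed, so they say nothing of recovery for dim probes. Upstream sequences came from RefSeq.

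Named were the 10 members, Apoe, up to 6 called genes per pathway list in order of p, genes behind a count of 5 or fewer in a pathway list, and the nearest patterns, of which 1 is not reported here. Tagln, Gsdmd, Nlrc4, Aim2, Nlrp1a, Il33, Il1rl1, the cell type markers and the chromosomal neighbours were named after their values were seen. Members and lists were chosen with earlier results of these data known. List genes not measured were 2 of 20 signalling genes, 2 of 26 inflammasome genes and 1 neutrophil and 1 T cell marker.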

Additional observations from a re-analysis of the deposited data

How the results depend on the processing

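Il1rn and Il18bp kept their direction and call under all 15 and 14 alternatives they could be given, with differences of 1.805 to 2.926 and 0.941 to 1.522. Quantile normalization between arrays lost the calls of Il1b (1.043), Nlrp3 (0.784), Casp1 (0.596) and Il18 (0.405), which left 2 of the 10 genes called higher, and 1651 features in all (871 higher, 780 lower) against 5158 (2357 higher, 2801 lower). Leaving out 1 array in turn gave 5 or 6 genes called higher, with Il18 at 0.587 to 0.719 and Casp1 at 0.82 to 0.995. Il18 was lost without ApoE KO replicate 3 and Casp1 without WT replicate 2. Il1r2 passed with array weights (0.144), with centring (0.161), at a level of at least 0.5 (0.136) and with the dimmest features removed (0.136). The fit limited to a level of at least 0.5 held 4 of the 10 genes and called 3 higher. Lower calls over all features ran from 1798 to 2826 with 1 array left out, with 1803 when ApoE KO replicate 3 and 1798 when WT replicate 2 was absent. The same replicate number did not go with shared deviations (r of 0.078, -0.469 and -0.145 for numbers 1, 2 and 3). Between arrays of other numbers, r was 0.483 for ApoE KO 1 with WT 2, 0.614 for ApoE KO 2 with WT 3 and 0.347 for ApoE KO 3 with WT 1. The remaining pairs of arrays had r of -0.421, -0.426 and -0.074. Whether arrays were paired under other numbers was not tested. With the replicate block, 2582 features were called (1281 higher, 1301 lower), and the calls of the 10 genes did not change. Among the pathway and marker lists, 84 counts moved, either by over 1.5 times or between 0 and another count. The 366 that did not move include counts that stayed at 0. Dim probes limit Il1a and Il1rap, whose differences were 0.355 and 1.01 rounding steps.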
